A study of Mus musculus with 8 samples.

Results

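The 6 chemokine ligand genes Ccl3, Ccl4, Ccl5, Ccl22, Cxcl10 and Cxcl16 were examined, chosen by name from the 37583 gene identifiers in the files through their mouse symbols. All 6 were found, and all 6 passed the filter on low counts. The series compared B cells from the spleens of C57BL/6 (B6) mice in 3 states, in 8 RNA-seq libraries. Naive B cells gave 3 libraries. The CpG group (3 libraries) had been stimulated for 3 days with CpG ODN1668, a short synthetic DNA sensed by TLR9 in endosomes. The TLR group (2 libraries) had the same CpG stimulation, with LPS, which TLR4 senses, and PMA and ionomycin, which together mimic antigen receptor signalling, present over the final 5 hours. The titles name the CpG and TLR groups Bregs, for regulatory B cells. No culture without CpG is among the groups, so CpG and time in culture cannot be told apart. The labels do not say whether replicates came from separate mice or cultures, so the p-values reflect the spread among these libraries alone.

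The files list the genes as ENSMUSG00000000982 (Ccl3), ENSMUSG00000018930 (Ccl4), ENSMUSG00000035042 (Ccl5), ENSMUSG00000031779 (Ccl22), ENSMUSG00000034855 (Cxcl10) and ENSMUSG00000018920 (Cxcl16). In GENCODE M21 (GRCm38) Ccl3, Ccl4, Ccl5 and Cxcl16 lie on chromosome 11, Ccl22 on chromosome 8 and Cxcl10 on chromosome 5.

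Chemokines are small secreted proteins that guide the movement of leukocytes by binding receptors coupled to G proteins. CCL3, CCL4 and CCL5 are inflammatory chemokines, and activated B cells are a known source of CCL3 and CCL4, which draw T cells toward them. CCL22 binds CCR4 and CXCL10 binds CXCR3, a receptor of T helper and cytotoxic cells. CXCL16 is unusual in being made as a membrane protein that is later shed, and it binds CXCR6.

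Gene counts summed to between 15804311 and 20069272 per library. With TMM normalization factors applied, 1 count was worth 0.0501 to 0.0645 CPM, the depth-scaled count used throughout. In bulk RNA a lower level can mean fewer cells of a type or less RNA per cell, and these cannot be told apart. Summed markers of B cells (Cd79a, Cd79b, Ms4a1, Pax5 and Cd22) stood at 6894 to 10287 CPM in the naive and CpG libraries and at 2084 and 2185 CPM in the TLR libraries, where all 5 fell against CpG. Replicate 1 of each group carries the library prefix RCa1 and the others RCa18. The labels do not say what the prefix means. Reads aligned to several places, which were not counted, made up 37.5% to 50.2% of the lines in the RCa1 libraries and 14.7% to 21.5% in the RCa18 libraries.

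Ccl3 and Ccl4 carried most of the chemokine signal after stimulation, Ccl5 and Cxcl10 nearly vanished with CpG and came back in the final step, Cxcl16 fell, and Ccl22 did not pass the test in any comparison. In CpG against naive, 2 of the 6 genes rose and 3 fell (edgeR adjusted p below 0.05), where 45.5% of all 13964 tested genes were called, 23.5% higher and 21.9% lower. In TLR against CpG 3 rose and none fell, where 38.8% of tested genes were called and 19.0% were higher. In TLR against naive 3 rose and 1 fell, a share near the 61.2% of all tested genes called (31.6% higher and 29.7% lower). The median log2 fold change of the 6 genes was -0.99, 1.33 and 0.80 in these comparisons, and that of all tested genes 0.01, -0.02 and 0.01. The 3 comparisons share libraries, so their values are not independent. All 12 called changes had the same direction within either prefix, as far as a ratio could be given.

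**Figure D1:**
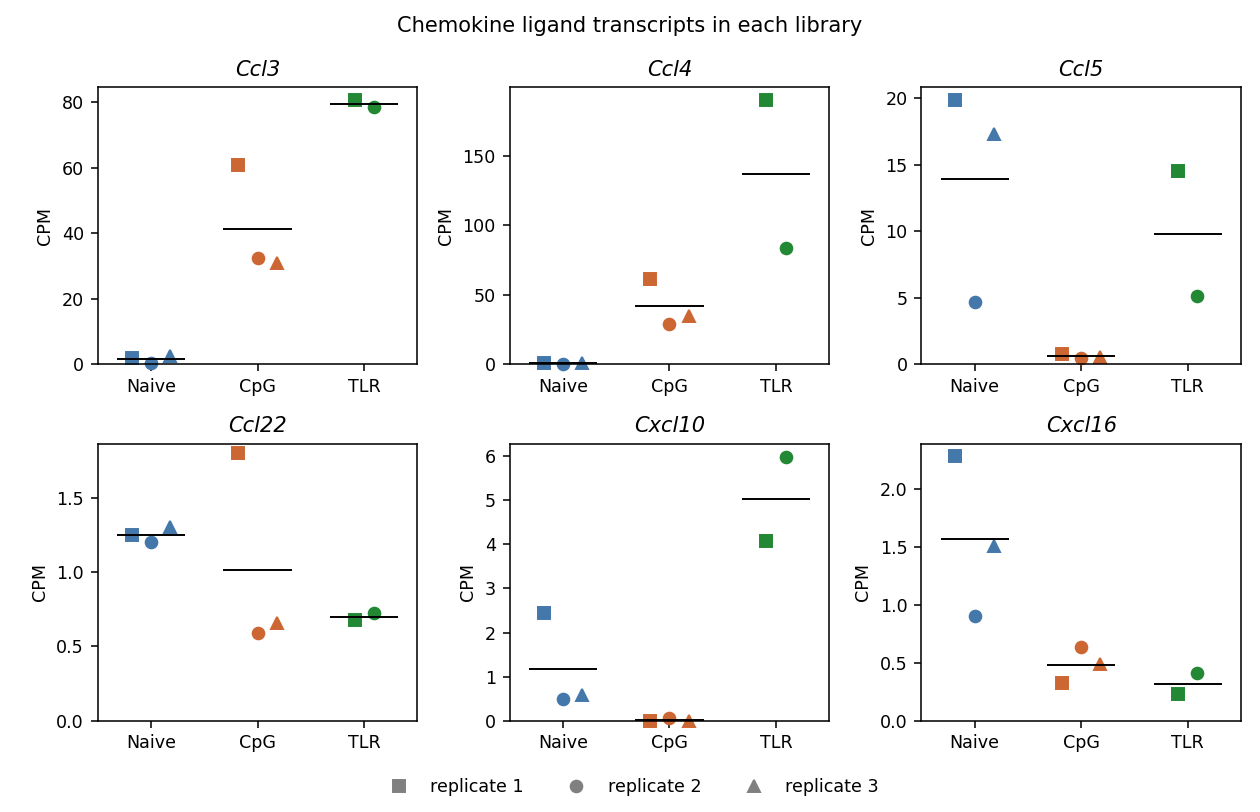
Level of each of the 6 genes in CPM (linear axis from 0) in every library, by group, with a point per library, a symbol per replicate number and a line at the group mean. Ccl3 and Ccl4 climb from below 3 CPM in naive libraries, while Ccl5 and Cxcl10 drop to below 1 CPM with CpG and return in both TLR libraries.

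Ccl3, which encodes the chemokine also called MIP-1 alpha, measured 1.93, 0.301 and 2.61 CPM in naive replicates 1 to 3, then 60.9, 32.3 and 30.8 CPM in CpG replicates 1 to 3, and 80.5 and 78.6 CPM in TLR replicates 1 and 2. No library of one group reached the range of another. With CpG it rose 25.7-fold (log2 fold change 4.68 ± 0.51 SE, edgeR adjusted p = 8.45e-05), with log2 ratios of 4.98 between the RCa1 libraries and 4.44 between the RCa18 libraries. The TLR libraries were 1.93-fold above CpG, but this did not pass the test (0.95 ± 0.44, adjusted p = 0.114, or 0.0390 without CpG replicate 1 and 0.0267 without naive replicate 2). Against naive cells the TLR libraries were 49.4-fold higher (5.63 ± 0.53, adjusted p = 1.52e-05).

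Ccl4, which encodes MIP-1 beta, lies beside Ccl3 on chromosome 11 and is read from the other strand. It measured 1.09, 0.301 and 0.887 CPM in naive replicates 1 to 3, then 61.4, 29.3 and 35.0 CPM in CpG replicates 1 to 3, and 189.7 and 83.5 CPM in TLR replicates 1 and 2. The groups again did not overlap, and TLR replicate 1 was far above TLR replicate 2. Ccl4 rose 54.9-fold with CpG (5.78 ± 0.51, edgeR adjusted p = 2.62e-05), with 5.81 between the RCa1 libraries and 5.76 between the RCa18 libraries. It rose a further 3.26-fold in the final step (1.71 ± 0.39, adjusted p = 0.00688), a call lost without TLR replicate 1 (1.00, adjusted p = 0.117). The log2 ratio of that step was 1.63 between the RCa1 libraries and 1.38 between the RCa18 libraries. Against naive cells the TLR libraries were 7.48 ± 0.53 higher on the log2 scale (adjusted p = 2.73e-06), or 6.78 without TLR replicate 1.

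Per kilobase of merged exon, Ccl4 was 1.05 to 1.32 times Ccl3 in the CpG libraries and 2.74 and 1.23 times Ccl3 in TLR replicates 1 and 2. In naive replicates 1 to 3 the ratio was 0.659, 1.16 and 0.395, on 6 to 50 counts of either gene per library. The 2 genes were near equal in every CpG library and parted in TLR replicate 1. Reads aligned to several places, which were not counted, made up 50.2% of lines in TLR replicate 1 and 47.1% in CpG replicate 1, where the ratio was 1.17. In the GENCODE M21 transcripts (build GRCm38, while the counts were made on mm9), none of the 717 stretches of 50 bases in Ccl3 and none of the 611 in Ccl4 occurred in a transcript of another gene. The number of reads either gene lost was not measured.

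Ccl5, which encodes RANTES, is best known from T and natural killer cells. It measured 19.8, 4.66 and 17.3 CPM in naive replicates 1 to 3, then 0.774, 0.481 and 0.546 CPM in CpG replicates 1 to 3, and 14.5 and 5.16 CPM in TLR replicates 1 and 2. The CpG libraries were all below the others, and the naive and TLR libraries overlapped. With CpG it fell by 4.54 ± 0.64 on the log2 scale, or 23.2-fold (edgeR adjusted p = 0.000411), with -4.68 between the RCa1 libraries and -4.42 between the RCa18 libraries. The final step raised it 16.3-fold over CpG (4.03 ± 0.67, adjusted p = 0.00116, or 3.10 without TLR replicate 1), with 4.23 between the RCa1 libraries and 3.33 between the RCa18 libraries. TLR did not differ detectably from naive (-0.51 ± 0.58, adjusted p = 0.464), and the sign turned without TLR replicate 2 (0.060, adjusted p = 0.947).

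Across the 3 naive libraries Ccl5 was lowest in replicate 2, where summed markers of natural killer cells and of T cells were also lowest. Those of neutrophils and of basophils and mast cells were lowest there too. Macrophage markers were lowest in naive replicate 3. Summed markers of natural killer cells (10 genes such as Ncr1, Klrd1 and Gzma) were 93.5, 19.3 and 83.3 CPM in naive replicates 1 to 3, low in the same library as Ccl5. They were 1.74 to 2.99 CPM in the CpG libraries, where all 10 fell and Ncr1, Klrk1 and Gzma had no count. Prf1 made up most of the sum after stimulation. It was at 1.68, 2.67 and 2.02 CPM in CpG replicates 1 to 3 and 1.02 and 1.45 CPM in TLR replicates 1 and 2. The part of natural killer cells in the fall of Ccl5 was not tested. In TLR replicates 1 and 2, where Ccl5 was back at 14.5 and 5.16 CPM, the same sum was 1.36 and 1.81 CPM. Ncr1, Gzma and Nkg7 had no count there. None of the 10 was called against CpG, but Ncr1 and Gzma had no count in either group and could not be called. Summed markers of T cells (12 genes) were 19.5, 9.77 and 35.2 CPM in naive replicates 1 to 3. They were 2.13 to 4.92 CPM in CpG libraries and 2.49 and 6.45 CPM in TLR replicates 1 and 2. No T cell marker was called between TLR and CpG, though the sum in TLR replicate 2 was above that of every CpG library. Lat alone gave 4.60 of the 6.45 CPM there, and Cd3e, Cd4, Cd8b1, Trbc2 and Themis had no count in the TLR libraries. The part of T cells in the fall of Ccl5, and that of T cells and natural killer cells in its rise in the final step, was not tested.

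**Figure D2:**
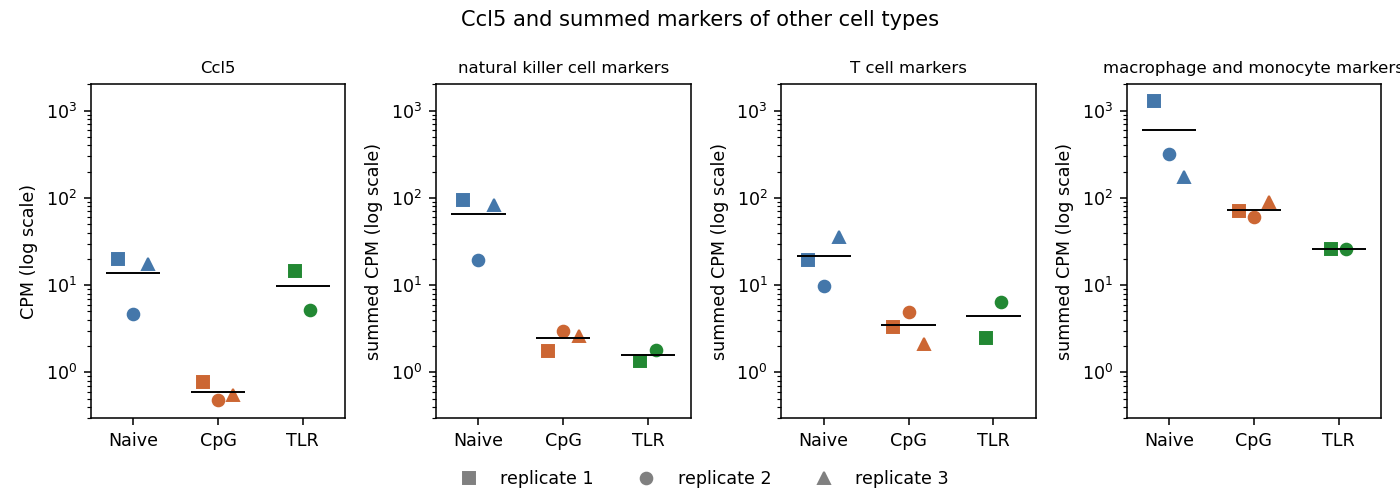
Ccl5 in CPM beside the summed CPM of markers of natural killer cells, T cells, and macrophages and monocytes in each library (logarithmic axes, line at the group mean). Ccl5 returns to 14.5 and 5.16 CPM in the TLR libraries, while the natural killer sum stays at 1.36 and 1.81 CPM. The part of these cell types in the course of Ccl5 was not tested.

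Macrophages are another known source of CCL3 and CCL4. Their summed markers (12 genes such as Csf1r, C1qa and Adgre1) were 1305, 317 and 174 CPM in naive replicates 1 to 3. They were 59.9 to 89.2 CPM in CpG and 25.6 and 26.1 CPM in TLR libraries. With CpG 10 of the 12 fell and Itgam rose, from 8.31 to 44.3 CPM on average. Itgam thus made up most of the CpG sum, which averaged 73.2 CPM. The part of macrophages in the rise of Ccl3 and Ccl4 was not tested. Of the dendritic cell markers 7 of 10 fell with CpG, and Clec9a, Siglech, Clec10a and Cd209a had no count in the TLR libraries. The summed dendritic list (234 to 430.3 CPM in all libraries) consists largely of Ccr7, which B cells also express. Neutrophil markers summed to 1.02 to 6.46 CPM, and basophil and mast cell markers to at most 9.55 CPM in naive and 0.322 CPM in stimulated libraries.

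Cxcl10, which encodes the interferon-induced chemokine IP-10, is switched on by interferon and NF-kB signalling in many cell types. The RefSeq promoter table used here (GRCm38.p6) was matched for Ccl3, Ccl22 and Cxcl10, and the 250 bases before the start of Cxcl10 (chr5:92348890-92349139, minus strand) and of Ccl3 (chr11:83649379-83649628, minus strand) are shown because both genes were higher in TLR than in naive libraries but took opposite courses with CpG. Capitals mark matches to the motifs of NF-kB (GGG, any 5 bases, CC), interferon regulatory factors (GAAA, any 2 bases, GAAA, the ISRE) and AP-1 (TGANTCA), searched on both strands.
Cxcl10: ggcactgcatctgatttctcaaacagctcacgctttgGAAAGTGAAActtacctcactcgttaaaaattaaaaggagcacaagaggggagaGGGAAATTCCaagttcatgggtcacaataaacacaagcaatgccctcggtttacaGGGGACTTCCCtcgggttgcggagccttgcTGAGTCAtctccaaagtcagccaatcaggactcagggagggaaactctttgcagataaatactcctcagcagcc
Ccl3: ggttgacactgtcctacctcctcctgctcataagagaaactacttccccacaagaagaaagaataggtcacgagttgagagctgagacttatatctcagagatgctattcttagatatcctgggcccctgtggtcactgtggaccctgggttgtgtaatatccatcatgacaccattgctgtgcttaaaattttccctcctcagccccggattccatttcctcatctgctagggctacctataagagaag
In Cxcl10 the ISRE match began 213 bases before the start, NF-kB matches 159 and 104 bases before it (the second stretch also matches shifted by 1 base), and the AP-1 match 74 bases before it. The Ccl3 window held none of these letters. Of 32851 RefSeq promoters of the same length, 45.8% held the NF-kB motif, 2.98% the ISRE and 6.75% the AP-1 motif. A match describes sequence alone.

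Cxcl10 had 47, 10 and 11 counts (2.45, 0.501 and 0.574 CPM) in naive replicates 1 to 3, 0, 1 and 0 counts in CpG replicates 1 to 3, and 72 and 116 counts (4.08 and 5.99 CPM) in TLR replicates 1 and 2. The 3 groups did not overlap, with CpG lowest and TLR highest. The naive libraries held 61.3 times the depth-scaled count of the CpG libraries (exact 95% counting interval 10.6 to 2455), and the fall passed the test (edgeR adjusted p = 0.00249). The TLR libraries held 267 times that of the CpG libraries (interval 47.3 to 10591; adjusted p = 0.000354). Both intervals cover counting error only and rest on a single CpG count, in replicate 2. The fitted log2 fold changes of -5.52 and 7.62 became -7.44 and 9.54 without that library, and the first became -4.41 without naive replicate 1. In the RCa18 libraries alone the log2 ratios were -4.33 and 7.81, and in the RCa1 pair no ratio could be given because the CpG library had no count.

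Against naive cells, Cxcl10 was 4.28-fold higher in TLR libraries (2.10 ± 0.66, edgeR adjusted p = 0.0188). The log2 ratio was 0.74 between the RCa1 libraries and 3.48 between the RCa18 libraries, since naive replicate 1 held the highest naive level. The call was lost without naive replicate 2, naive replicate 3 or TLR replicate 2 (1.73, 1.76 and 1.80, adjusted p = 0.0555, 0.0567 and 0.111), and the value rose to 3.20 without naive replicate 1. Exons of Cxcl10 overlap those of Art3 on the opposite strand, and counting ignored strand. Art3 had 25, 7 and 1 counts in the naive, CpG and TLR groups, and the effect of the overlap on Cxcl10 was not tested.

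Among naive libraries Cxcl10 was highest in replicate 1, where the summed markers of macrophages (1305 CPM) and of natural killer cells (93.5 CPM) were also highest. The part of either cell type in the fall was not tested. In the TLR libraries, where Cxcl10 was highest, the summed macrophage markers were at their lowest, 25.6 and 26.1 CPM. Itgam and Cd68, at 8.78 and 8.06 CPM on average, made up much of that sum. The part of macrophages and of natural killer cells in the rise of Cxcl10 was not tested.

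Genes of the interferon route, the best-known inducer of Cxcl10, did not rise together in the final step. In a list of 14 tested genes, 3 rose and 5 fell in TLR against CpG (median log2 fold change -0.46, against -0.02 for all tested genes). Irf1, a transcription factor of the interferon response, fell from 232 ± 3.88 CPM in naive to 79.0 ± 9.26 in CpG and 38.9 ± 4.88 in TLR libraries (edgeR adjusted p = 1.14e-05 for the first step and 0.000301 for the second). The kinase genes Jak1 and Jak2 rose in the final step by 0.98 ± 0.23 and 0.64 ± 0.15, and Ifngr2, a subunit of the interferon gamma receptor, by 0.33 ± 0.11 (edgeR adjusted p = 0.00835, 0.00635 and 0.0372). Ifnar2 and Ifngr1, subunits of the interferon receptors, fell by 1.07 ± 0.13 and 0.61 ± 0.13 in that step, and Irf5 and Irf9 also fell. Ifng, the interferon gamma gene, had 56, 3 and 1 counts in the 3 groups, and Ifnb1 had none in any library. With CpG 1 of the 14 rose and 6 fell (median -0.32), and in TLR against naive 1 rose and 9 fell (median -0.55). The part of interferon signalling in the course of Cxcl10 was not tested.

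Ccl22, which encodes a ligand that draws regulatory T cells and T helper cells through CCR4, was low in every library. It had 24, 24 and 25 counts (1.25, 1.20 and 1.30 CPM) in naive replicates 1 to 3, 28, 11 and 12 counts (1.81, 0.588 and 0.655 CPM) in CpG replicates 1 to 3, and 12 and 14 counts (0.679 and 0.723 CPM) in TLR replicates 1 and 2. The CpG libraries fell on either side of the naive ones, and both TLR libraries were below every naive library. The log2 fold changes were -0.32 ± 0.48 with CpG (edgeR adjusted p = 0.615), -0.51 ± 0.56 in the final step (adjusted p = 0.504) and -0.83 ± 0.55 over both (adjusted p = 0.215). The CpG change was 0.53 between the RCa1 libraries and -1.01 between the RCa18 libraries, and the final step was -1.41 and 0.22, so the prefixes gave opposite directions for both.

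Cxcl16, which encodes the membrane-bound ligand of CXCR6, had 44, 18 and 29 counts (2.29, 0.902 and 1.51 CPM) in naive replicates 1 to 3, 5, 12 and 9 counts (0.322, 0.641 and 0.491 CPM) in CpG replicates 1 to 3, and 4 and 8 counts (0.226 and 0.413 CPM) in TLR replicates 1 and 2. All stimulated libraries lay below all naive ones. It fell by 1.67 ± 0.50 with CpG (edgeR adjusted p = 0.0209), with -2.83 between the RCa1 libraries and -1.09 between the RCa18 libraries. That call was lost without naive replicate 1, CpG replicate 1 or CpG replicate 3 (adjusted p = 0.0633, 0.0532 and 0.0565) and with the RCa1 libraries left out (adjusted p = 0.109). The final step gave -0.59 ± 0.62 (adjusted p = 0.489), with overlapping groups. Over both steps it fell by 2.26 ± 0.60 (adjusted p = 0.00852, or 0.0763 without TLR replicate 1 and 0.0834 with the RCa1 libraries left out), with -3.34 between the RCa1 libraries and -1.55 between the RCa18 libraries. Macrophages also express Cxcl16, and their summed markers, like Cxcl16, were highest in naive replicate 1, as were those of natural killer cells. In naive replicates 2 and 3 Cxcl16 and the macrophage markers were in opposite order. The part of other cells in the fall was not tested. Exons of Cxcl16 overlap those of Zmynd15 on the opposite strand, 16.9% of its 50-base stretches occur in transcripts of that gene, and Zmynd15 had 33, 10 and 10 counts in the 3 groups.

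**Figure D3:**
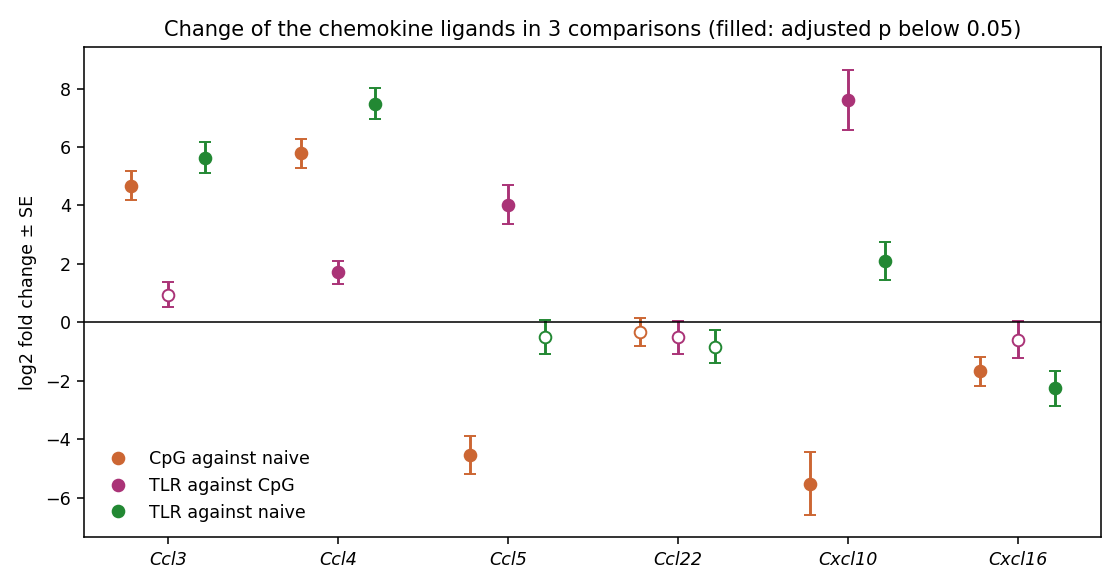
Log2 fold change of each gene in the 3 comparisons, with error bars of 1 SE and filled points where the edgeR adjusted p was below 0.05. Ccl3 and Ccl4 lie above 0 throughout, Ccl5 and Cxcl10 switch sign between the CpG step and the final step, and no point of Ccl22 is filled. The Cxcl10 values of the first 2 comparisons rest on 1 CpG count.

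The order of the genes changed with the group. Per kilobase of merged exon, Ccl5 led in naive libraries at 14.5 ± 8.48 CPM per kilobase, with no overlap with Ccl3 at 2.11 ± 1.55. Below Ccl5 each neighbour in the naive order (Ccl3, Ccl4, Ccl22, Cxcl10, Cxcl16) overlapped with the next. In CpG libraries Ccl4 (63.5 ± 25.9) and Ccl3 (54.0 ± 22.1) overlapped with each other and lay above Ccl5 (0.625 ± 0.160) and Ccl22 (0.437 ± 0.295), which overlapped, then Cxcl16 (0.161 ± 0.0528) and Cxcl10. In TLR libraries the order was Ccl4 (207 ± 114), Ccl3 (104 ± 1.78), Ccl5 (10.2 ± 6.87), Cxcl10 (2.23 ± 0.601), Ccl22 (0.302 ± 0.0132) and Cxcl16 (0.106 ± 0.0437), with no overlap between neighbours over the 2 libraries. Ccl3 and Ccl4 together made up 7.64% to 14.4% of the summed CPM of the 6 genes in naive libraries, 97.2% to 97.7% in CpG and 93.0% and 93.3% in TLR libraries. The sum itself was 7.86 to 28.9 CPM in naive, 63.4 to 125 CPM in CpG and 174 to 289.7 CPM in TLR libraries.

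Across the wider chemokine family few ligands were expressed. Of 38 listed ligand genes 36 were found and 16 were tested, the 6 above and 10 others; the 20 found but not tested had at most 52 counts over all libraries, and 8 had none. With CpG 3 of the 16 rose (Ccl2, Ccl3 and Ccl4) and 6 fell (Ccl5, Ccl6, Ccl9, Cxcl9, Cxcl10 and Cxcl16), with a median of -0.99. In the final step 4 rose (Ccl4, Ccl5, Ccl7 and Cxcl10) and Ccl6 fell, with a median of 0.11, and in TLR against naive 6 rose and 6 fell, with a median of -0.55. Ccl2 and Ccl7, ligands of the monocyte receptor CCR2, stayed low: they had 1 and 1 counts in the naive group, 25 and 7 in the CpG group and 37 and 42 in the TLR group. Cxcl9, which like Cxcl10 is induced by interferon gamma and binds CXCR3, had 54, 21 and 10 counts in naive replicates 1 to 3. Summed macrophage markers took the same order there (1305, 317 and 174 CPM), and their part was not tested. Cxcl9 had 85 counts over the naive libraries and none in CpG or TLR libraries. It was at least 25.5-fold and 17.99-fold lower there when those groups are set at 3 counts over the group. Cxcl9 thus did not return with Cxcl10, and Cxcl11, the third ligand of CXCR3, had 3, 0 and 2 counts in the 3 groups and was not tested. Ccl6 fell from 10.2 ± 9.49 CPM in naive to 1.07 ± 0.543 in CpG and 0.0516 ± 0.0730 in TLR libraries. In naive replicates 1 to 3 it measured 20.8, 2.45 and 7.36 CPM. The summed markers of macrophages and of natural killer cells were also highest in naive replicate 1, and their part was not tested. Ccl25 was higher in TLR than in naive libraries by 1.01 ± 0.33 on the log2 scale (edgeR adjusted p = 0.0229), and Ccl9, Ppbp and Xcl1 were lower. Ccl27a and Cxcl12 passed no test.

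**Figure D4:**
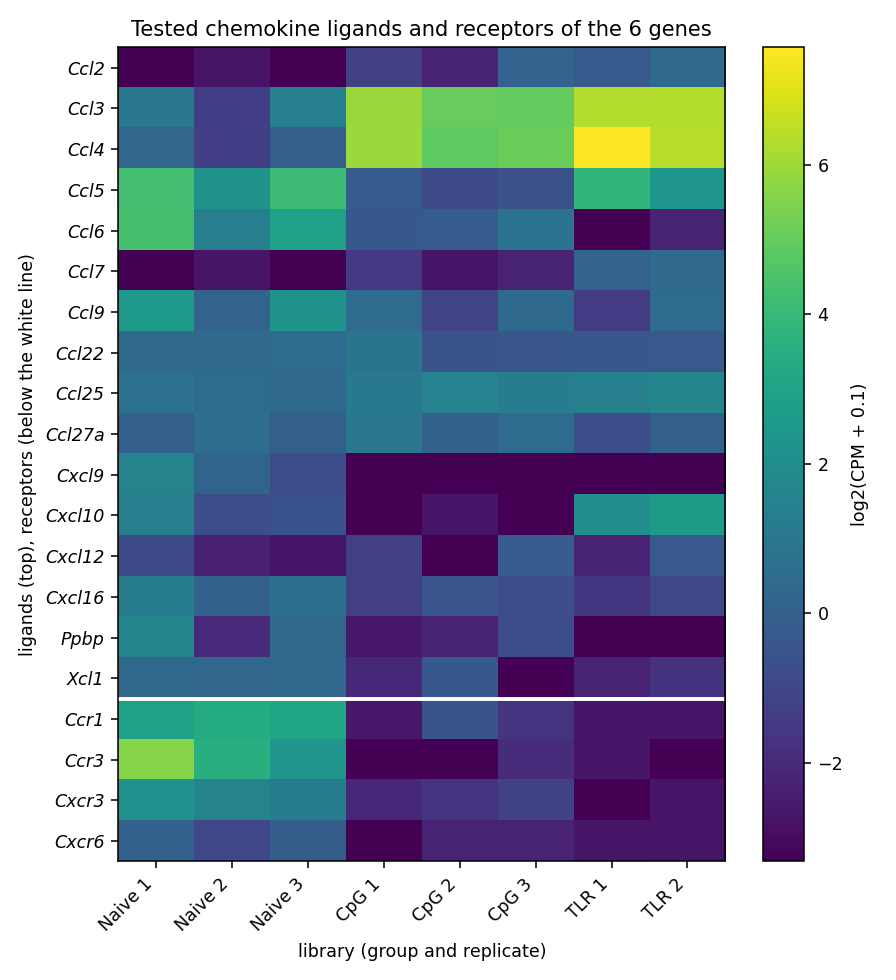
Level of the 16 tested chemokine ligands and, below the white line, of 4 receptors of the 6 genes in each library, as log2(CPM + 0.1). Colours are to be read along a row, since levels are not per length: Cxcl9 is dark in every stimulated library, while Cxcl10 is bright again in both TLR libraries.

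The 4 receptors of these ligands that were tested and are reported here fell after stimulation. Of 5 listed receptor genes 4 were tested, and with CpG 4 fell (Ccr1, Ccr3, Cxcr3 and Cxcr6) and none rose, with a median of -4.31. In the final step Cxcr3 fell and none rose (median -1.62), and over both steps the same 4 genes as with CpG fell (median -6.88). Ccr1, a receptor of CCL3 and CCL5, fell from 8.76 ± 1.34 to 0.290 ± 0.269 CPM (edgeR adjusted p = 7.68e-05). Cxcr3, the receptor of CXCL10, fell from 3.21 ± 1.08 to 0.223 ± 0.0996 CPM (adjusted p = 0.000340), and to 1 count in the TLR group. Cxcr6 had 42, 4 and 2 counts in the 3 groups, and Ccr3 had 1242, 3 and 1. Ccr4, the receptor of CCL22, had 4, 26 and 17 counts and was not tested. All 4 are also known from other leukocytes. Macrophage, T cell and natural killer cell markers were lower in the stimulated libraries, and their part in these falls was not tested.

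Enzymes and surface proteins that act on chemokines moved in both directions. In that list 3 of 6 tested genes rose with CpG and 1 fell, with a median of 0.20, 1 rose and 3 fell in the final step (median -0.41), and 2 rose and 3 fell over both (median -0.07). Dpp4, a peptidase that trims CXCL10, CCL5 and CCL22, rose from 166 ± 11.6 CPM in naive to 592 ± 94.1 in CpG libraries (edgeR adjusted p = 1.54e-05) and stood at 398 ± 57.3 in TLR libraries, lower than in CpG (adjusted p = 0.0190). Adam10, the protease that sheds CXCL16, was at 207 ± 14.3, 201 ± 28.5 and 130.2 ± 20.1 CPM and fell in the final step (-0.63 ± 0.16, adjusted p = 0.0100). Its change with CpG was -0.04 ± 0.14 (adjusted p = 0.827), and the difference between the steps was not tested. Cpd, a carboxypeptidase, rose from 4.39 ± 1.83 to 59.3 ± 21.3 CPM with CpG (adjusted p = 3.24e-05) and stood at 84.1 ± 21.0 CPM in TLR libraries. Sdc4, a heparan sulphate proteoglycan, rose with CpG and fell in the final step, from 217 ± 14.1 to 292 ± 38.0 and 111 ± 16.8 CPM (adjusted p = 0.0231 and 0.000112). Sdc1, another heparan sulphate proteoglycan of the kind that holds chemokines, fell from 22.9 ± 1.06 to 4.84 ± 3.07 CPM with CpG and rose to 30.2 ± 7.04 CPM in the final step (adjusted p = 0.000817 and 0.000531).

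Proteins that bind AU-rich elements and endonucleases of the Regnase family set how long many cytokine messages last. With CpG 4 of the 8 tested genes of this list rose and 4 fell (median -0.28), in the final step 3 rose and 1 fell (median 0.32), and over both 4 rose and 4 fell (median -0.10). Zfp36l2, a decay factor, fell from 456 ± 177 to 61.8 ± 7.43 CPM with CpG (edgeR adjusted p = 2.62e-05). Zfp36, which encodes tristetraprolin, fell from 576 ± 93.1 to 203 ± 31.5 CPM and rose to 306 ± 79.6 CPM in the final step (adjusted p = 0.000200 and 0.0438). Zc3h12c, of the Regnase family, fell in both steps, from 19.6 ± 2.75 to 5.33 ± 1.55 and 1.67 ± 0.0438 CPM (adjusted p = 0.000223 and 0.00179). Elavl1, which encodes the stabilising protein HuR, rose in both, from 119 ± 12.2 to 151 ± 9.92 and 233 ± 9.83 CPM (adjusted p = 0.0269 and 0.00295). Zc3h12a, the endonuclease Regnase, rose from 109 ± 10.5 to 165 ± 11.1 CPM with CpG (adjusted p = 0.00171).

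Likeness of pattern to 9218 genes with mean levels of 8 CPM or more was measured as the root mean square difference of centred log2 CPM over the 8 libraries, which share depth and group structure. Nearest to Ccl3 were Nfil3 (0.62), Wfdc17 (0.64) and Ctla4 (0.68), and nearest to Ccl4 were Ctla4 (0.58), Wfdc17 (0.62) and Bcat1 (0.71). The Ccl3 and Ccl4 profiles themselves had a root mean square of 2.72 and 3.18. Nearest to Cxcl10 were Iqgap2 (0.55), Cd86 (0.96) and Tnf (1.19), and nearest to Ccl5 were Cd200 (1.03), Hs3st1 (1.03) and Cd86 (1.09), against a root mean square of 2.02 for Ccl5 itself. Cd86, a ligand of CD28, was at 53.6, 11.0 and 98.9 CPM on average in naive, CpG and TLR libraries, and Tnf, the tumour necrosis factor gene, at 23.8, 6.87 and 47.8 CPM. For the genes with few counts, Plcb2, Zfp276 and Zfp513 were nearest to Ccl22 (0.19 to 0.21, against 0.50 for its own profile) and Apoe, Rgs3 and Dusp22 to Cxcl16 (0.28 to 0.32, against 0.91). Apoe is known from macrophages.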

How the data were processed

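RNA was measured in 8 libraries of mouse splenic B cells, made strand-specific after polyA selection, per the labels' protocols. The submitters' processing notes name STAR, HTSeq, edgeR and build mm9, and their versions are not given in the sources used here. Deposited files hold the authors' raw counts per gene, with strand ignored per the file names and 5 summary lines that were left out. GENCODE M21 (GRCm38) gave symbols for 32860 of 37583 identifiers, and the rest held at most 1.01% of a library's counts.

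The fit used edgeR 4.0.16 in R 4.3.3: filterByExpr (13964 genes), TMM, quasi-likelihood over all 8 libraries with 1 mean per group, Benjamini-Hochberg over all tested genes, threshold 0.05 and prior count 0.125. SE is the log2 fold change over the square root of F. The fit was tested on simulated data with 1 common dispersion of 0.042 for every gene, where it recovered 156 of 200 changed genes. That setting does not cover genes of wider spread. Named by rule were the 6 genes, tested ligands and receptors of the 6, in each other list up to 4 called genes of smallest adjusted p in each comparison, and the 3 genes most alike in pattern. Ifngr2, Jak1 and Jak2 in the final step, overlapping genes, untested genes and markers were named after their values were seen. The genes and lists were chosen with earlier results of these data known. Alternatives tried were DESeq2 1.42.0, other scaling (RLE, or none beyond library size), other filters (none, or 1 CPM on average), a fit of 2 groups, a replicate block, the prefix as a term or RCa1 left out, and every library left out in turn. Same-numbered replicates were not taken as pairs. Some genes of the lists are not reported here, and the counts, sums and medians of their lists leave them out.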

Additional observations from a re-analysis of the deposited data

How the results depend on the processing

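Of 201 alternative values for the 12 called changes, 191 kept their direction and stayed past the threshold, and of 100 for the 6 changes not called, 93 stayed as they were. The number of genes called stayed within 1.5 times of 5, 3 and 4 in all alternatives. In the RCa18 libraries alone Cxcl16 lost its call in CpG against naive (-1.09) and in TLR against naive (-1.54), and Ccl22 turned to 0.22 in TLR against CpG. Ccl3 was called in TLR against CpG without the filter (0.95) and with only the 2 groups compared (0.94). Leaving out 1 library gave ranges of -1.95 to -1.30 for Cxcl16 in CpG against naive and, in TLR against CpG, 0.77 to 1.34 for Ccl3, 1.00 to 2.18 for Ccl4 and -0.79 to 0.18 for Ccl22, which turned to 0.18 without CpG replicate 1. In TLR against naive the ranges were -1.42 to 0.060 for Ccl5, which turned to 0.060 without TLR replicate 2, 1.73 to 3.20 for Cxcl10 and -2.75 to -1.90 for Cxcl16. The cause was not tested. Cxcl16 gave no value under a mean of at least 1 CPM or, in TLR against CpG, with 2 groups only, nor did Cxcl10 in CpG against naive with 2 groups only, since they did not pass those filters.

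With the replicate number as a block, no call of the 6 genes changed: in TLR against CpG Ccl3 stood at 1.05 (edgeR adjusted p = 0.0721) and Ccl4 at 1.62, and in TLR against naive Cxcl10 stood at 1.95. The numbers were not taken to pair the samples: deviations from the group means correlated at 0.160, 0.104 and 0.00359 between naive and CpG libraries of the same number, at 0.127 and 0.0250 between naive and TLR libraries and at 0.325 and 0.297 between CpG and TLR libraries, and not every library correlated best with its own number. The block moved the count of all called genes from 6347 to 6665, from 5417 to 5541 and from 8551 to 8602. The prefix as a term moved it further, to 7093, 6082 and 9108. Leaving out TLR replicate 1 or TLR replicate 2 left 1 library in the TLR group. Fewer genes were called in TLR against CpG in either case. Ccl22, Cxcl16 and, in CpG, Cxcl10 rest on few counts.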

Other observations

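Other chemokine receptors, of B cells and of other leukocytes, moved in both directions. Of 13 tested genes 3 rose with CpG (Ccr9, Ackr2 and Ackr4) and 7 fell, with a median log2 fold change of -1.33. In the final step Ccrl2 rose and 5 fell (Ccr6, Cxcr5, Ackr2, Ackr3 and Ackr4; median -1.28), and in TLR against naive 1 rose and 9 fell (median -2.88). Cxcr5, the receptor that leads B cells into follicles, fell from 550.3 ± 109 CPM in naive to 219 ± 18.01 in CpG and 61.3 ± 19.3 in TLR libraries (edgeR adjusted p = 0.000473 and 0.000216). Ccr6, the receptor of CCL20, fell from 98.3 ± 12.2 to 28.6 ± 19.0 and 0.779 ± 0.140 CPM (edgeR adjusted p = 0.00323 and 0.000138). Ccr2, the monocyte receptor of CCL2, had 596, 4 and 1 counts in the naive, CpG and TLR groups and fell with CpG (edgeR adjusted p = 0.000289). In naive replicates 1 to 3 it had 366, 58 and 172 counts. Summed markers of macrophages and of natural killer cells were also highest in naive replicate 1. The part of other cells in the falls of these receptors was not tested. Ackr2, a decoy receptor that removes inflammatory chemokines such as CCL3, CCL5 and CCL22, rose from 15.9 ± 4.26 to 38.1 ± 7.94 CPM with CpG and fell to 2.85 ± 1.15 CPM in the final step (adjusted p = 0.00283 and 3.55e-05), so it was lowest in the TLR libraries, where Ccl3 and Ccl4 were highest. Ccr7, a receptor of lymph node homing that was named after its values were seen, stood at 254 ± 46.1, 285 ± 60.1 and 326 ± 141 CPM and passed no test.

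Cxcl2, a ligand of the neutrophil receptor CXCR2, was not tested because of few counts, and was named after its values were seen. It had 0, 1 and 28 counts in the naive, CpG and TLR groups.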
